A study of Homo sapiens and Mus musculus with 12 samples.

Results

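In a human pancreatic cancer line, 601 peaks of the tagged factor SPDEF lay more than 10 kb, edge to edge, from every GATA6 peak. They were selected by position from 2 deposited peak lists of HPAF-II, an established line of pancreatic ductal adenocarcinoma (PDA), with positions on the build hg19. Peaks on the mitochondrial genome, below 1 Mb on chromosome 1 or within 1 Mb of a centromere band were left out, which removed 172 of the 2775 SPDEF peaks, 21 of them far from GATA6. The far peaks thus made up 601 of 2603 SPDEF peaks kept (23.1%, 95% Wilson interval 21.5 to 24.7). Of the others, 1711 overlapped a GATA6 peak by at least 1 bp and 291 lay beside one, within 10 kb. The distance to GATA6 chose the peaks, so it is given below as a description.

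CUT&RUN uses an antibody to bring a nuclease to a chromatin protein, and the fragments it frees are sequenced. By their labels, all HPAF-II libraries used came from cells with HA-tagged human SPDEF: 3 were made with an antibody against the tag and 3 with one against GATA6. GATA6 peaks in HPAF-II without the tagged factor were therefore not measured. The sources used here do not say how the tagged gene was introduced, how strongly it was expressed or whether the cells were 1 clone. Each antibody has 1 peak list, with positions and no height, score or value per library. No spread between libraries can be set beside any value, sequencing depth is unknown, and no test over samples could be made. Peaks are not replicates, and all intervals cover counting error only, with each peak counted as independent. Another SPDEF peak lay within 1 kb of 72 of the 601 far peaks and of 355 of the 1711 on GATA6. Such neighbours may be parts of 1 site, so the intervals may be too narrow.

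SPDEF belongs to the ETS family, whose members read a short GGAA or GGAT core through a winged helix-turn-helix domain. It is known for driving the maturation of goblet and other mucus-secreting cells. GATA6 is a zinc-finger factor of endoderm that marks the classical, more epithelial form of PDA. A factor's sites can lie at gene starts or at distal enhancers, and sites of factors that work on the same enhancers lie close together. The bases under the peaks are not shown, because no hg19 sequence was used here.

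The far peaks were few for the length of sequence in which they could lie. Sequence more than 10 kb from GATA6 made up 2657 Mb, or 94.2% of the sequence considered, and held 0.226 SPDEF peaks per Mb (95% exact Poisson interval 0.208 to 0.245). The remaining 163 Mb within 10 kb of a GATA6 peak held 2002 SPDEF peaks, or 12.3 per Mb (11.7 to 12.8), 54.3 times as many per Mb. The far sequence includes assembly gaps, in which no peak can be called, and how far they change this ratio was not tested.

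Distance to the nearest GATA6 peak ran from 10.3 kb to 1587 kb, with a median of 75.5 kb and quartiles of 36.9 and 192.6 kb. Peaks per Mb were fewer far out than near the limit. The rate was 1.84 per Mb for the 291 peaks beside GATA6, 0.453 (0.363 to 0.560) between 10 and 25 kb and 0.477 (0.395 to 0.570) between 25 and 50 kb. Between 50 and 100 kb it was 0.393, between 100 and 250 kb 0.214 and between 250 and 500 kb 0.180. Only 20 peaks lay between 500 and 1000 kb (0.0498 per Mb) and 8 farther out (0.0243 per Mb). The sequence of these bins also includes assembly gaps, and how far they lower the outer rates was not tested. The rates of the first 3 bins beyond 10 kb had overlapping intervals, so no order among them is read.

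**Figure D1:**
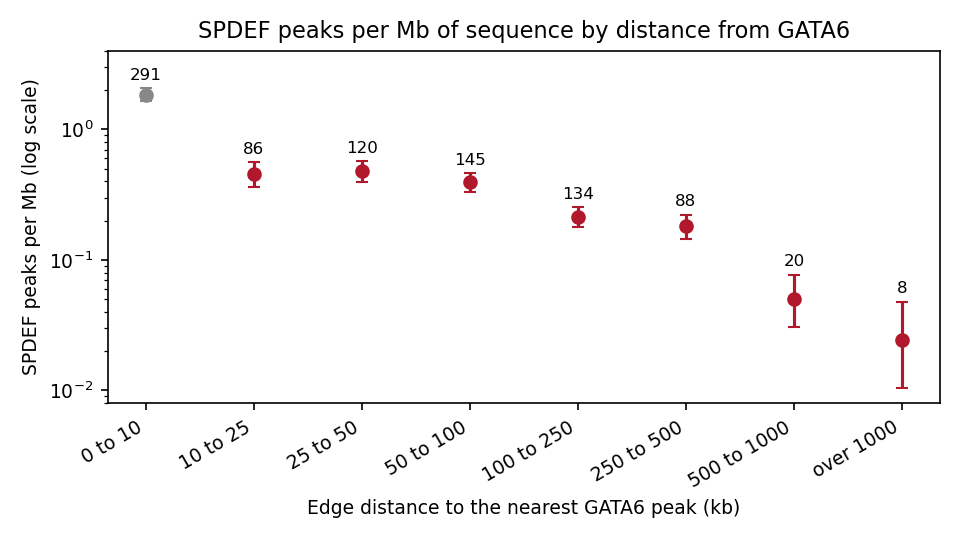
SPDEF peaks per Mb of hg19 sequence (y axis, log scale) by edge distance to the nearest GATA6 peak in kb (x axis). Points are rates with 95% exact Poisson intervals, numbers by them are peak counts, red points are the far peaks and the grey point is the 291 peaks beside GATA6. The rate was 1.84 per Mb beside GATA6, near 0.45 to 0.48 from 10 to 50 kb and 0.0243 beyond 1000 kb.

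The peaks next to the limit show where the rule divides. Just inside it stood 7q11.21 (chromosome 7, 65216129 to 65216329, at 10270 bp), 20q12 (chromosome 20, 39958315 to 39958533, at 10409 bp) and 12q24.31 (chromosome 12, 125423499 to 125424075, at 10472 bp), with widths of 201, 219 and 577 bp. Just outside stood 8q13.1 (chromosome 8, 67025927 to 67026106, at 9849 bp), 6p22.2 (chromosome 6, 26285920 to 26286120, at 9834 bp) and 11q21 (chromosome 11, 96058017 to 96058444, at 9807 bp), with widths of 180, 201 and 428 bp.

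The most remote peaks lay in large stretches without GATA6. The farthest, in 4p15.31 (chromosome 4, 18686856 to 18687178), was 323 bp wide and 1587 kb from GATA6, and its nearest SPDEF neighbour was 4399220 bp away. Next came 5p15.33 (chromosome 5, 3741310 to 3741502) at 1530 kb, 4q32.3 (chromosome 4, 166033752 to 166033964) at 1418 kb and 19q13.43 (chromosome 19, 57791338 to 57791689) at 1195 kb. The fifth, in 16p12.2 (chromosome 16, 23723155 to 23723899), was 745 bp wide and 1126 kb from GATA6. It had another far peak of 172 bp at 23710774 to 23710945. The band 16p12.2 held 2 far peaks and 4 SPDEF peaks on GATA6. Its 32 protein-coding genes include ERN2, a stress sensor of the endoplasmic reticulum found in mucus-secreting epithelium, and UQCRC2 of the respiratory chain. No peak was placed at either gene. In all, 471 GATA6-free gaps held a far peak, 380 of them exactly 1 and at most 6, and the median far peak lay in a gap of 412 kb.

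Width was the one property of a peak that the lists gave beyond its place. Far peaks had a median width of 239 bp (95% order-statistic interval 231 to 248, quartiles 195 and 337), against 282 bp (271 to 289) for peaks on GATA6 and 225 bp (214 to 240) for peaks beside it. The intervals of far peaks and of peaks on GATA6 did not overlap, while those of far peaks and of peaks beside GATA6 did. A wider peak meets the rule of a 1 bp overlap more easily, so the classing itself can raise widths on GATA6. How far it does was not tested, and the same limit holds for the shares over 500 bp. Widths over 500 bp were recorded for 62 of 601 far peaks (10.3%, Wilson 8.13 to 13.0), against 14.7% of all SPDEF peaks and 294 of 1711 on GATA6 (17.2%, 15.5 to 19.0). Beside GATA6 the share was lower still, 26 of 291 (8.93%, 6.17 to 12.8), with an interval that overlapped that of far peaks. From all other SPDEF peaks the far ones differed by -5.67 percentage points (95% Newcombe interval -8.42 to -2.57), and most of those others were on GATA6.

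Within the far class the median width was 246 bp (221 to 291) between 10 and 25 kb, 229.5 bp (215 to 252) between 25 and 50 kb, 241 bp (227 to 267) between 50 and 100 kb, 235 bp (210 to 257) between 100 and 250 kb and 259.5 bp (217 to 292) between 250 and 500 kb, and these intervals overlapped. Very narrow peaks, under 100 bp, numbered 36 of 601 (5.99%), against 63 of 1711 on GATA6 (3.68%) and 33 of 291 beside it (11.3%). Of the far peaks 2 were 1 bp wide.

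**Figure D2:**
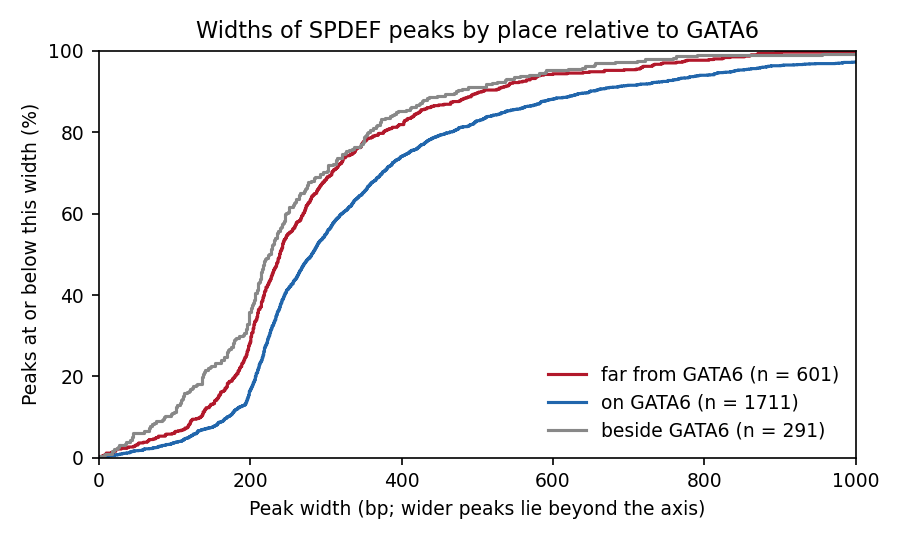
Share of peaks (y axis, percent) at or below a given width in bp (x axis, cut at 1000 bp) for SPDEF peaks far from, on and beside GATA6 (n = 601, 1711 and 291). The curve of far peaks, median 239 bp, runs left of that of peaks on GATA6, median 282 bp, and close to that of peaks beside GATA6, median 225 bp.

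The 10 widest far peaks measured 834 to 1327 bp and lay on 8 different chromosomes. The widest was in 14q11.2 (chromosome 14, 21149985 to 21151311), 23.7 kb from GATA6. The second, of 1110 bp, was in 11p15.4 (chromosome 11, 6495030 to 6496139), at 83.5 kb. Others were in 14q24.1 (chromosome 14, 69864825 to 69865726), 1p13.3 (chromosome 1, 109968425 to 109969318) and 14q32.12 (chromosome 14, 93650946 to 93651816), with 902, 894 and 871 bp. Peaks of 870 bp in 7q11.21 (chromosome 7, 64871391 to 64872260) and 862 bp in 12q24.23 (chromosome 12, 120033261 to 120034122) followed. The last of them were in 9q34.11 (chromosome 9, 132359447 to 132360306), 16p13.3 (chromosome 16, 2802058 to 2802910) and 5q33.2 (chromosome 5, 153666280 to 153667113). The peak in 9q34.11 stood alone, with its nearest SPDEF neighbour 1529316 bp away and GATA6 371.1 kb away. That in 12q24.23 had a neighbour at 217 bp.

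Another SPDEF peak lay within 10 kb of 106 of the 601 far peaks (17.6%), against 30.7% of all SPDEF peaks, and within 1 kb of 72 (11.98%). The rule itself lowers the share of far peaks, since SPDEF peaks on GATA6 can hardly lie within 10 kb of one, so nothing is read from the comparison. No SPDEF neighbour within 1 Mb was found for 66 far peaks (10.98%, 8.73 to 13.7) and for 171 on GATA6 (9.99%, 8.66 to 11.5), shares with overlapping intervals.

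Joined over gaps of at most 12500 bp, the far peaks formed 487 singles, 46 pairs and 6 clusters of 3 or more, the last with 22 peaks. In 14q11.2, 4 peaks of 235, 1327, 476 and 710 bp filled most of 3.57 kb (chromosome 14, 21149542 to 21153106). In 17p13.1, 4 peaks of 119, 235, 148 and 293 bp lay within 1.44 kb (chromosome 17, 8124552 to 8125993), 72.8 kb from GATA6. Another 4 peaks, in 3q26.2 (chromosome 3, 169487257 to 169491471), were 338.4 kb or more from GATA6 and included 1 of 22 bp. The cluster in 20q13.2 (chromosome 20, 52784634 to 52796639) had the longest span of the 6, with 4 peaks of 157 to 239 bp over 12.01 kb. This band held 5 far peaks and 11 on GATA6. BCAS1, listed here with goblet cell genes, is 1 of its 16 protein-coding genes, and no peak was placed at it. The clusters of 3 lay in 1q21.3 (chromosome 1, 153505986 to 153509241) and 8q24.3 (chromosome 8, 145013930 to 145018079). The first peak in 8q24.3 was 826 bp wide and the other two 268 and 199 bp.

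**Figure D3:**
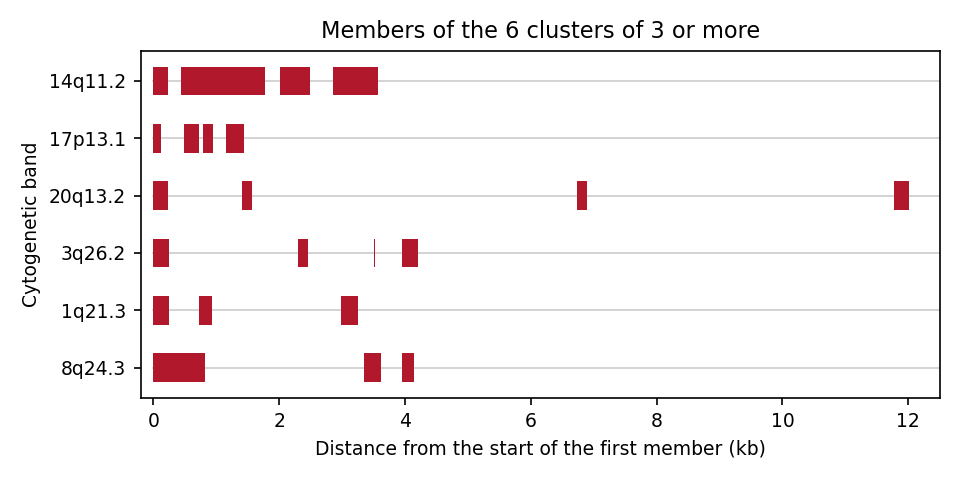
Far peaks of the 6 clusters with 3 or more members, drawn to scale as bars by distance in kb from the start of the first peak (x axis), 1 row per cytogenetic band. The cluster in 17p13.1 spans 1.44 kb and that in 20q13.2 spans 12.01 kb, while in 14q11.2 the widest peak is 1327 bp.

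By chromosome, the shares of far peaks differed from those of the other SPDEF peaks. The rule can leave fewer far peaks where GATA6 peaks are dense. How far it sets these differences was not tested, and none is read as a trait of the far peaks. Chromosomes 2, 12 and 3 had 1043, 931 and 831 GATA6 peaks, and chromosome 1 had 909, counts that take no account of chromosome length. Chromosomes 14 and 20 had 617 and 364. Their far shares differed from those of the others by -1.12 points (-3.50 to 1.64) and 1.01 points (-1.12 to 3.55). Chromosome 1 held 70 far peaks (11.6%), against 171 of the 2002 other SPDEF peaks (8.54%), a difference of 3.11 percentage points (Newcombe 0.440 to 6.14). Chromosome 2 held 36 (5.99%), against 215 of the others (10.7%), and chromosome 3 held 28 (4.66%), against 164 (8.19%). Chromosome 12 held 59 (9.82%), against 272 (13.6%). On chromosome 2 14.3% of SPDEF peaks were far from GATA6, on chromosome 12 17.8% and on chromosome 9 39.2% (20 of 51, Wilson 27.0 to 52.9). The difference interval lay above 0 for 6 of 23 chromosomes (1, 7, 9, 13, 16 and 17) and below 0 for 3 (2, 3 and 12), with no adjustment for the number of chromosomes.

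Per Mb of sequence far from GATA6, chromosome 20 had the most far peaks, 0.831, followed by chromosome 14 with 0.638, chromosome 12 with 0.519 and chromosome 19 with 0.422. The median chromosome had 0.192. Chromosomes 18 (0.0575 per Mb), 21 (0.0642), 4 (0.0729) and X (0.0764) had the fewest. Counted per 100 protein-coding genes the order differed: chromosome 14 had 8.26, chromosome 20 had 8.01 and chromosome 12 had 5.76, while chromosome 19 had 1.45. Chromosomes 20, 14 and 12 also held 123, 189 and 272 of the other SPDEF peaks. Of all SPDEF peaks on them 25.9%, 20.9% and 17.8% were far, against 23.1% over all chromosomes, and 29.2% on chromosome 19. Neither order is therefore read as particular to far peaks.

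**Figure D4:**
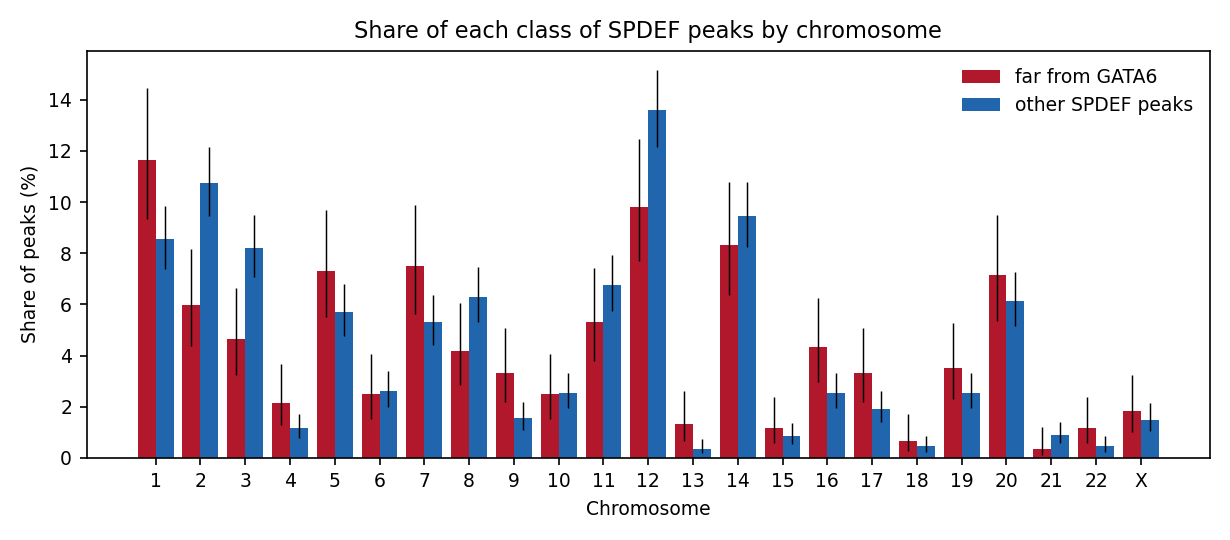
Share of the 601 far peaks (red, left bar) and of the 2002 other SPDEF peaks (blue, right bar) on each chromosome, in percent (y axis), with 95% Wilson intervals. Chromosome 1 holds 11.6% and 8.54%, chromosome 2 5.99% and 10.7%, and chromosome 12 9.82% and 13.6%.

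Far peaks lay in gene-richer bands than peaks on GATA6. Genes could be tied to the peaks only through the name of the cytogenetic band, since the gene table was on GRCh38.p14 and the peaks on hg19. A band spans several Mb and many genes, so nothing here places a peak at a gene. Far peaks lay in bands with a median of 10.4 protein-coding genes per Mb (order-statistic interval 8.98 to 10.9). The medians were 6.92 (6.67 to 7.06) for peaks on GATA6, 8.75 (7.44 to 10.5) for those beside it, and 4.81 for the sequence far from GATA6. GATA6 peaks themselves had a median of 5.76 (5.69 to 5.80). Peaks on GATA6 lie where GATA6 peaks are and far peaks were chosen away from them. The comparison therefore also carries the placement of GATA6 peaks, as do those with peaks on GATA6 in the paragraphs below. The intervals of far peaks and of peaks beside GATA6 overlapped. Bands with 20 or more genes per Mb held 105 far peaks (17.5%, Wilson 14.6 to 20.7), against 201 on GATA6 (11.7%, 10.3 to 13.4) and 54 of 291 beside it (18.6%, 14.5 to 23.4), so the high share was not particular to far peaks. These bands made up 5.30% of the far sequence and held 7.22% of GATA6 peaks.

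The far sequence was divided into 4 classes of nearly equal length by the gene density of its band. From the gene-poorest to the gene-richest class, the far peaks numbered 25, 75, 161 and 340, or 0.0375, 0.113, 0.242 and 0.512 per Mb. The richest class had 13.7 times the rate of the poorest (95% interval 9.10 to 20.5). The far sequence includes assembly gaps, and the poorest class holds bands without a protein-coding gene, such as 1q12 with 12.7 Mb. How far these change the ratio was not tested. In the same bands, the other SPDEF peaks had 8.25, 8.71, 12.46 and 16.9 per Mb of sequence within 10 kb of GATA6, a ratio of 2.04 (1.75 to 2.39). Counted per 100 protein-coding genes of the bands, far peaks were at 2.27, 2.86, 3.55 and 2.94, and the other SPDEF peaks at 17.7, 13.3, 13.7 and 7.24. The far peaks thus differed less between classes per gene than per Mb. Distance to gene starts was not measured.

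**Figure D5:**
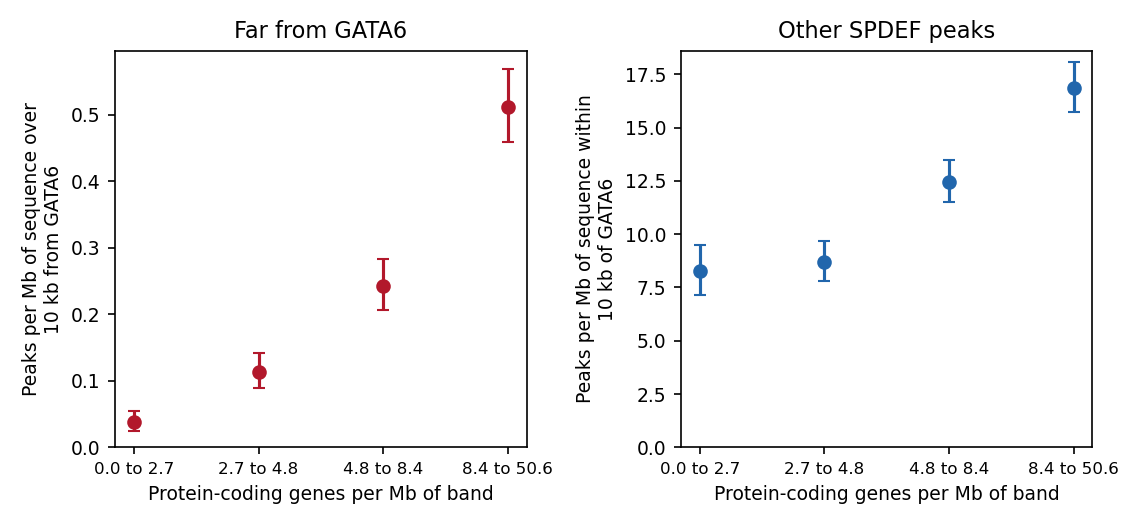
Peaks per Mb with 95% exact Poisson intervals (y axes, each from 0) in 4 classes of the sequence by protein-coding genes per Mb of the band (x axes), for far peaks over sequence more than 10 kb from GATA6 (left) and other SPDEF peaks over sequence within 10 kb of it (right). Far peaks run from 0.0375 to 0.512 per Mb and the others from 8.25 to 16.9 per Mb.

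Giemsa staining, which leaves gene-rich chromatin light and gene-poor, late-replicating chromatin dark, gave a like picture in hg19 positions alone. Light bands held 369 far peaks (61.4%, Wilson 57.4 to 65.2) and 44.2% of the far sequence, against 58.4% of all SPDEF peaks. Peaks on GATA6 were in light bands in 970 of 1711 cases (56.7%, 54.3 to 59.0), and the difference of 4.71 percentage points had a Newcombe interval of 0.117 to 9.19. Beside GATA6 the share was 181 of 291 (62.2%, 56.5 to 67.6), and the difference of far peaks from it was -0.802 points (-7.48 to 6.05). Against all other SPDEF peaks the difference was 3.91 points, with an interval that included 0 (-0.594 to 8.29). At the other end, the 2 darkest grades held 76 far peaks (12.6%, 10.2 to 15.5), against 343 on GATA6 (20.05%, 18.2 to 22.01), a difference of -7.40 points (-10.5 to -3.98). From the 46 of 291 beside GATA6 (15.8%) the far peaks differed by -3.16 points, with an interval that included 0 (-8.39 to 1.57). Per Mb of far sequence, far peaks were at 0.314 in light bands, 0.375 in the palest grey ones, 0.207 and 0.118 in the next, and 0.0649 in the darkest. Within light bands alone the far peaks had a median width of 239 bp (230 to 249), against 281 bp (270 to 291) on GATA6, with the same limit from the classing by overlap.

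Ends of chromosomes, which are gene-rich in the human genome, held a higher share of far peaks than of peaks on GATA6. Within 5 Mb of an end lay 69 (11.5%, Wilson 9.17 to 14.3), against 116 on GATA6 (6.78%, 5.68 to 8.07) and 26 beside it (8.93%, 6.17 to 12.8). The share was 8.11% over all SPDEF peaks and 5.36% over GATA6 peaks. The difference from peaks on GATA6 was 4.70 percentage points (2.06 to 7.71), and that from peaks beside GATA6 was 2.55 points, with an interval that included 0 (-1.93 to 6.48). Far peaks were at 0.354 per Mb of far sequence there and 0.216 elsewhere.

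Of 787 bands with sequence far from GATA6, 296 held a far peak, 165 of them 1 each. The 11 bands with 7 or more held 93 in all, and each is a light band. 14q11.2 led with 16 far peaks, beside 20 SPDEF peaks on GATA6, and 6 of the 16 lay between 21082110 and 21153106 on chromosome 14. 12q13.13, the band of the type II keratins KRT5, KRT6A, KRT6B, KRT6C and KRT7, which form the cytoskeleton of epithelia, held 10 beside 17. These were spread over the band from 51702259 to 54372875 on chromosome 12, and those at 52740606 to 52741339 and 53955146 to 53955877 were 734 and 732 bp wide. 1q21.3, with the calcium-binding S100A2 and the cornified envelope genes SPRR1B and SPRR3, held 9 beside 11. 20p13 and 8q24.3 held 8 each beside 6 and 9. In 11p11.2, 7 far peaks stood beside 5 on GATA6. Its 65 protein-coding genes include CREB3L1, a factor that drives secretory gene programmes. They also include SPI1 of the blood and immune list and NDUFS3 of the respiratory chain list. 17p13.1 had 7 beside 3 and 3q26.2 7 beside 4. The genes named in these bands were picked from many, 90 in 12q13.13 and 151 in 1q21.3, and no peak was placed at any of them.

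Transfer RNA genes, short genes transcribed by RNA polymerase III that sit in tight clusters, are concentrated in few bands. The gene table placed 334 of 443 of them in 16 bands with 5 or more, a threshold chosen after the values were seen. These bands held 61 far peaks (10.1%, Wilson 7.98 to 12.8), against 81 on GATA6 (4.73%, 3.83 to 5.85) and 23 beside it (7.90%, 5.32 to 11.6). The intervals of far peaks and of those beside GATA6 overlapped. The share over all SPDEF peaks was 6.34%. They hold 2.25% of the far sequence and 6.32% of protein-coding genes, and had 1.02 far peaks per Mb of far sequence. From the 104 of 2002 other SPDEF peaks (5.19%) the far ones differed by 4.95 percentage points (2.54 to 7.77). Beyond 100 kb from GATA6 the share was 16 of 250 (6.4%), against 149 of 2353 (6.33%) for all SPDEF peaks at 100 kb or less. The difference was 0.0677 points (-2.58 to 3.92). That comparison group also holds the far peaks between 10 and 100 kb, so it is not the group of 2002.

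Of the 16 bands, 12 held a far peak. After 14q11.2, with 15 tRNA genes, came 17p13.1 and 16p13.3 with 7 far peaks each, and 1q21.1 and 5q35.3 with 5 each. In 5q35.3, 4 of the 5 lay between 180616112 and 180673716 on chromosome 5, and the widest measured 668 bp. 6p22.1, with 97 tRNA genes the band richest in them, held 4 far peaks beside 1 on GATA6, and 6p22.2, with 47, held 3 beside none. Those in 6p22.1 included peaks of 433 and 403 bp at 27219067 to 27219499 and 27446779 to 27447181 on chromosome 6, 744.7 and 600.9 kb from GATA6. 7q36.1, with 19 tRNA genes, held no SPDEF peak of any class. 1p36.33 and 6p11.2 held none among the peaks kept, but the left-out regions cover part of both. In 1p36.33, below 1 Mb on chromosome 1, 1 SPDEF peak far from GATA6 and 2 on it had been left out. Without 14q11.2 the share was 45 of 585 (7.69%) for far peaks and 82 of 1980 (4.14%) for the others.

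Gene lists were counted by whether the band of each gene held a far peak, which was so for 57.8% of 19835 protein-coding genes. An SPDEF peak on GATA6 was in the band of 76.4% of them. Since a gene-rich band is shared by many genes, these counts say nothing of a single gene. The 14 mucin genes lie in 8 bands, and 12 of the genes had a far peak in their band and 13 a peak on GATA6. The membrane mucins MUC3A, MUC12 and MUC17 share 7q22.1, with 7 far peaks and 18 on GATA6. MUC1, in 1q22, had 1 far peak (chromosome 1, 155057512 to 155057665) beside 7 on GATA6, and MUC4 and MUC20, in 3q29, 1 (chromosome 3, 195603364 to 195603561) beside 18. In 11p15.5, where MUC6, MUC2, MUC5AC and MUC5B encode secreted gel-forming mucins, there was 1 far peak beside 1. MUC13 and MUC15 had no far peak in their bands.

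Among 30 genes of mucus secretion and goblet cells, 19 had a far peak in their band and 23 a peak on GATA6. AGR2 and AGR3, of which AGR2 helps mucins fold, had 2 far peaks in 7p21.1 beside 5 on GATA6. The trefoil factors TFF1, TFF2 and TFF3, small peptides secreted with mucus, had none in 21q22.3 beside 8. The band of SPDEF itself, 6p21.31, had 1 beside 2. GALNT6, which starts mucin O-glycans, lies in 12q13.13 with its 10 far peaks, whereas the bands of its relatives GALNT3, GALNT4, GALNT5, GALNT7 and GALNT12 held none. C1GALT1C1, the chaperone of the core 1 O-glycan enzyme, and GCNT3, a core 2 enzyme, had 2 far peaks each and none on GATA6 in their bands.

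Protein folding and endoplasmic reticulum stress genes had a far peak in the bands of 13 of 30 (43.3%, Wilson 27.4 to 60.8) and a peak on GATA6 in those of 20. CANX, a lectin chaperone, lies in 5q35.3 with 5 far peaks, and the stress sensor ATF6 in 1q23.3 with 4. HSPA5, PDIA3, PDIA4, CALR, DNAJC3, HERPUD1, XBP1, ERN1, CRELD2 and SEC61B had no far peak and none on GATA6 in their bands. Of 27 endoderm and epithelial transcription factor genes 19 had a far peak and 23 a peak on GATA6. HNF4A, in 20q13.12, had 5 beside 14, PDX1 and CDX2, in 13q12.2, had 3 beside 3, and GATA6, FOXA1, SOX9, KLF5, ELF3, EHF, ELF4 and ETS2 had no far peak.

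Classical PDA genes had a far peak in the bands of 14 of 23 and a peak on GATA6 in those of all 23. For VSIG2, in 11q24.2, 4 far peaks stood beside 1 on GATA6, for BTNL8, in 5q35.3, 5 beside 3, and for LYZ, in 12q15, 3 beside 11. TSPAN8, in 12q21.1, had none beside 9. Basal-like PDA genes had a far peak in the bands of 14 of 27 (51.9%) and a peak on GATA6 in those of 22. The 14 include KRT5, KRT6A, KRT6B, KRT6C and KRT7, which all share 12q13.13. Epithelial-mesenchymal transition genes had them in the bands of 12 of 20 (60%) and of 18. The shares over all protein-coding genes were 57.8% and 76.4%. Respiratory chain genes stood at 26 of 35 for far peaks and 28 for peaks on GATA6, and ribosomal protein genes at 36 and 47 of 62. All 42 core histone genes of the list had one, and 20 a peak on GATA6, but the genes listed share only 6p22.1 and 6p22.2. Both are also tRNA gene bands. The comparison lists stood at 14 of 20 for blood and immune genes and 6 of 20 for neuronal genes. Peaks on GATA6 were in the bands of 17 of 20 for the blood and immune list and 16 of 20 for the neuronal list.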

How the data were processed

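Per the submitters' processing notes, MACS2 2.2.7.1, deepTools, SAMtools 1.14 and Bowtie2 2.4.4 were used, with mm10 and hg19 as builds. The sources used here give neither the step of each tool nor the control, the threshold or how an antibody's 3 libraries were combined. The authors deposited positions only, 1 list per target, with no count, score or fold. The lists were tied to their targets by name; 0 SPDEF and 0 GATA6 peaks ended past an hg19 chromosome. Not analysed here were the mouse list and the H3K4me3 and IgG libraries.

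Peaks were classed by edge distance. Sequence lengths leave out the regions named, acrocentric short arms and chromosome Y, and include assembly gaps elsewhere. Peaks and genes were put in bands by midpoint. Positions count from 1. Intervals were 95% Wilson, Newcombe, exact Poisson or, for medians, order-statistic; ratios of rates used the normal approximation of the log. Bands came from circlize 0.4.16, lengths from GenomeInfoDb 1.38.1 (R 4.3.3), and other steps used Python 3.11.15, numpy 2.4.6, pandas 2.3.3, scipy 1.17.1 and matplotlib 3.10.9. Distances were checked on simulated peaks and against bedtools 2.31.1.

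Named peaks were the 10 widest, the 5 farthest, 3 on each side of the limit, and clusters of 3 or more; bands with 7 or more far peaks, tRNA gene bands and single band members were chosen after their values were seen. The far peaks and the 12 gene lists were chosen with earlier results of these data known. Planned work on start sites, motifs and base content was not run, as no hg19 annotation or sequence was used.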

Additional observations from a re-analysis of the deposited data

How the results depend on the processing

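No paired analysis was possible because each antibody has a single list, without values for its replicates. Of 143 alternative values, 122 stayed within the interval of the value reported, or within 1.5 times a count, and 0 of the differences or ratios run reversed. Most of the 143 were shares, medians or counts, which cannot reverse. The differences by chromosome between far and other SPDEF peaks were not rerun. The far peaks numbered 250 beyond 100 kb, and 1139 when only the wider 50% of GATA6 peaks counted; at 5 kb, 25 kb, by midpoints or with the left-out regions they numbered 515 to 644. With the wider 50% of SPDEF peaks alone, the median width was 363.5 bp for far peaks and 387 bp for the others, and 24.6% of far peaks were over 500 bp, widths set by that choice. The difference in that share from other SPDEF peaks then had an interval that included 0 (-5.93 points, -11.6 to 0.357), and the median gene density of far peaks was 11.6 per Mb. The share of far peaks on chromosomes 2, 3, 8, 12 and 16 was then 3.97%, 3.17%, 6.35%, 13.5% and 6.75%. Beyond 100 kb it was 7.6% on chromosome 3, 6.4% on 12, 3.6% on 14, 3.2% on 20 and 0% on 21. The share in tRNA gene bands was 6.4% beyond 100 kb, 13.5% with the wider 50%, 7.69% without 14q11.2 and 14.1% with bands of 2 or more such genes. A gap of 50 kb gave 11 clusters of 3 or more. The ratio of the gene-richest to the gene-poorest class ran from 11.8 to 14.0. The cause of the other shifts was not tested. Alternatives on bands, chromosome ends, neighbours, gene density and widths over 500 bp were chosen after seeing the data. With no score or depth, how many far peaks are weak calls is unknown.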

Other observations

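In 54 of the 296 bands with a far peak there was no SPDEF peak on GATA6, and these bands held 73 far peaks. Those with the most, 3 each, were 1p32.3, 1p34.2, 6p22.2 and 7p22.3. SLC2A1, a glucose transporter and a basal-like PDA gene, is 1 of 62 protein-coding genes in 1p34.2. The 3 far peaks of that band were 244, 250 and 244 bp wide (chromosome 1, 40505903 to 40506146, 41157493 to 41157742 and 41433278 to 41433521). The band held 16 GATA6 peaks, so the absence of shared peaks there was not an absence of GATA6. Only 2q23.1 held a far peak and no GATA6 peak. These bands were named after their values were seen.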
